A study of Mus musculus with 6 samples.

Results

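Of the 10 genes of the NF-kB family and its feedback circuit considered here, 9 were measured in the skin of LynDN transgenic and wild-type (WT) mice: the subunit genes Nfkb2 and Relb, the IkB family genes Nfkbia, Nfkbie, Nfkbiz and Bcl3, the ubiquitin-editing regulator Tnfaip3 and its partner Tnip1, and the ribonuclease gene Zc3h12a. They were found by gene symbol among 18617 named genes, each with 1 probe, and Nfkb1 was not analysed here (0 probes carried its symbol). Skin of 3 LynDN and 3 WT mice was compared on 2-colour arrays. LynDN mouse 1 was paired with WT mouse 1, LynDN mouse 2 with WT mouse 3 and LynDN mouse 3 with WT mouse 2, and each of these 3 pairs filled 2 arrays, a dye swap. LynDeltaN, as the transgene is written in the series title, is an altered form of the Src family tyrosine kinase Lyn. The strain, age and sex of the mice and the promoter that drives the transgene were not given in the sources used here.

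NF-kB is a family of dimeric transcription factors held in the cytoplasm by IkB proteins until the IkB kinase marks those for destruction. Freed dimers switch on inflammatory genes, and among these are genes for their own inhibitors, which close a negative feedback loop. In skin the pathway acts in keratinocytes as well as in immune cells, and loss of its brakes is a known route to inflamed, psoriasis-like epidermis.

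The deposited values are log ratios between the genotypes, taken here as base 2, and the numerator is not stated. A value of 1 thus stands for a 2-fold difference, and its sign is given as deposited. The calcium-binding alarmin gene S100a9 was positive on 6 of 6 arrays, from 4.64 to 6.16, so the sign of this gene ran the same way in both dye orientations. Psoriasis-like inflammation of the skin is known in such mice, and S100a9 is a known marker of it, but this was not used to set a direction. No probe was named Lyn (0 probes), and which genotype a positive value favours was not settled by the sources used here. If WT were the numerator, every sign below would turn at once. Pair 1 stood apart from the other pairs, also in some sex-linked genes given further on, and the calls without it are given beside the others. It was lowest in 94.4% of the 107 named genes with a mean of at least 1. Leaving it out thus raises the means of such genes and their calls, and those calls are no independent support. Calls without another pair were not counted for the gene lists further on. The number of arrays limits the precision. Ratios hold no expression levels, so the presence of skin markers could not be checked, and in whole skin fewer cells of a type and less RNA per cell cannot be told apart.

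NF-kB genes that feed back on the pathway are often themselves NF-kB targets, which in textbook cases runs through sites close to their transcription starts. In RefSeq promoter windows of GRCm38.p6, from 250 bases before to 50 after each annotated start, 7 of the 9 measured genes were matched, all but Relb and Nfkbiz. The NF-kB consensus, 10 bases long and searched on both strands, was found for 6 of these 7 genes (85.7%), against 857 of 14738 measured genes with an entry (5.81%) and 4.51% of 32851 windows. A match describes letters only and is no evidence of binding in these samples.

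The sequences below are shown because they carry these matches beside the starts of genes whose ratios follow. Each is written on the gene's own strand from 150 bases before the start to the last base before it, with the match to the consensus on either strand in capitals.
Nfkbia, chr12:55492648-55492797, minus strand: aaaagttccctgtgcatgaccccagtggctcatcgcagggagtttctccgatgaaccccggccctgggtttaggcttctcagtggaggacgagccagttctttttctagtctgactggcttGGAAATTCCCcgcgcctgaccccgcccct
Tnfaip3, chr10:19015411-19015560, minus strand: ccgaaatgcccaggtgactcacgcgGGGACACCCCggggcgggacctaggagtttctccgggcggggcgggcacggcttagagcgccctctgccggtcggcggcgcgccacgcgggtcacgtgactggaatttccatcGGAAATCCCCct
Tnip1, chr11:54962941-54963090, minus strand: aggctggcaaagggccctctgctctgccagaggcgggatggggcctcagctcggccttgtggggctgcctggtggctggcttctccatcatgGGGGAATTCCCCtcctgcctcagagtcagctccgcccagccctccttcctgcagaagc
Nfkb2, chr19:46304587-46304736, plus strand: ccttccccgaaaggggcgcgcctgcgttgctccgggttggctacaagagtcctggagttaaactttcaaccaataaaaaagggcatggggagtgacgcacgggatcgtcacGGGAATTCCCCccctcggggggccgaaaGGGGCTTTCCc
Nfkbie, chr17:45555550-45555699, plus strand: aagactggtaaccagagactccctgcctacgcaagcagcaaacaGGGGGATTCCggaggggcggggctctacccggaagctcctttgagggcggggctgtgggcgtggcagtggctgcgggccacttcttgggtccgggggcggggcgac
In Bcl3 the match lay just after the start, and 30 bases around it, from -8 to 22, are given.
Bcl3, chr7:19822734-19822763, minus strand: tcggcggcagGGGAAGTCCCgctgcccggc
Zc3h12a, the gene with the largest ratio, had no match in its window, and its stretch is shown for comparison.
Zc3h12a, chr4:125127882-125128031, minus strand: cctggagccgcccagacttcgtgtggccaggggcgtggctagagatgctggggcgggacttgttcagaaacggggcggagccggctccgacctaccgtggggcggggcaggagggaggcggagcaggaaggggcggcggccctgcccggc

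Counted from the start, the matches lay at -29 to -20 in Nfkbia, at -58 to -47 in Tnip1 and at -106 to -97 in Nfkbie. The Tnip1 site reads the same on both strands and holds 4 overlapping matches in 12 bases. Tnfaip3 had matches at -125 to -116 and -12 to -3 before its first annotated start and none in the window of its second. Nfkb2 had matches at -39 to -29 and -11 to -2 before its first start, and windows of its other 2 starts held further ones, of which the sequence at 11 to 20 of the second and at -225 to -216 of the third is the same stretch of the genome.

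**Figure D1:**
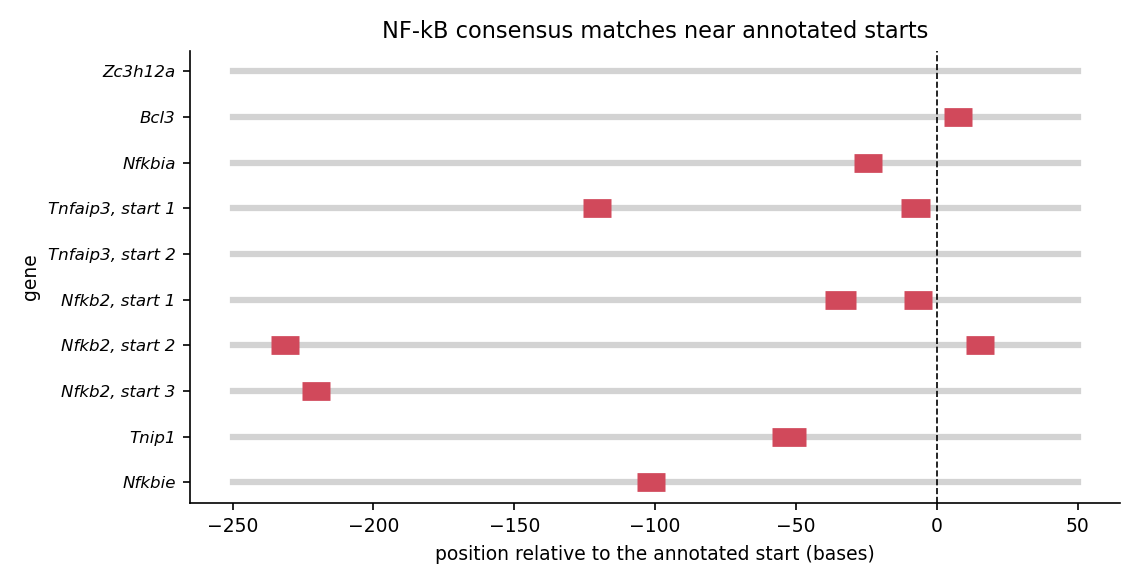
Matches to the NF-kB consensus (red) in windows from 250 bases before to 50 after each annotated start (grey bars, x axis in bases, dashed line at the start), with genes in order of their mean ratio. Of the 7 genes shown, Zc3h12a alone has no match in any window.

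The comparison of LynDN with WT skin asks whether genes of this circuit differ between the genotypes. All 9 had a positive mean ratio, against 43.9% of all 22879 rows, with means from 0.10 for Nfkbie to 1.65 for Zc3h12a and a median of 0.47, against a median of -0.01 over named genes. With the 3 pair values, limma passed 0 of the 9 at an adjusted p of 0.05, and 4 of all rows passed as positive (0.0175%) and 0 as negative. At an unadjusted p under 0.05, 7 of the 9 were positive, against 5.92% of all rows. In a fit of the 6 arrays that took the pair as a random block, 3 of the 9 passed, Zc3h12a, Nfkbiz and Bcl3, against 0.603% of all rows on the positive side. On the negative side this fit passed 0.459% of rows. It treats the dye swaps of a gene that varies mostly between pairs, as Nfkbiz did, almost as separate mice, so that its passes weigh less than those on the pair values. Without pair 1, 6 of the 9 passed, all positive, against 3.22% of rows passing as positive and 1.67% as negative. Without pair 2 or pair 3, 0 of the 9 passed in limma. Of all 22879 rows, 0.00874% passed without pair 2 and 4 rows without pair 3. At such low shares, 0 of 9 says little about these genes.

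Zc3h12a encodes Regnase-1, a ribonuclease that degrades mRNAs of inflammatory cytokines. Its log2 ratios with LynDN in Cy3 were 0.66, 1.95 and 1.55 in pairs 1, 2 and 3, and those with LynDN in Cy5 were 1.27, 2.39 and 2.07. All 6 values were positive, and pair 1 was lowest in either orientation. The mean was 1.65 ± 0.62 (SD, n = 3 pairs), a 3.14-fold difference with a 95% interval of 1.05 to 2.25 on the log2 scale. Adjusted p was 0.237 in limma on the pair values and 0.0166 with the pair as a block. Intervals here and below rest on limma's variance, which borrows from other rows, and are not adjusted for the number of rows. For Zc3h12a, Nfkbiz, Bcl3 and Nfkbia they are narrower than the 3 pair values alone would give. Zc3h12a ranked 44 of 18617 named genes by mean ratio. In each of the 3 pairs the array with LynDN in Cy5 gave the higher value, by 0.61, 0.44 and 0.52. This dye difference had an adjusted p of 0.0742 in limma, and 0 of the 9 genes passed that test, against 0.573% of all rows. At so low a share, 0 of 9 says little about these genes.

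Nfkbiz encodes IkB-zeta, an atypical nuclear IkB protein that helps NF-kB activate a set of inflammatory genes in keratinocytes. It had 0.73, 1.88 and 1.77 with LynDN in Cy3 in pairs 1, 2 and 3, and 0.95, 2.04 and 2.13 with LynDN in Cy5. The 6 values were positive, with those of pair 1 below all others. Nfkbiz had a mean of 1.58 ± 0.64 (SD, n = 3; 95% interval 0.96 to 2.20), 3.00-fold, with adjusted p = 0.237 in limma on the pair values and 0.0218 with the block. It ranked 47. Zc3h12a and Nfkbiz differed from each other by 0.07 ± 0.18 (SD, n = 3), less than the spread between pairs.

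Bcl3, another nuclear IkB protein, binds p50 and p52 homodimers and can make them activate genes. It had 0.19, 1.31 and 1.42 with LynDN in Cy3 and 0.70, 1.34 and 1.17 with LynDN in Cy5, again positive on 6 of 6 arrays. Its mean of 1.02 ± 0.50 (SD, n = 3; 95% interval 0.53 to 1.51) had adjusted p = 0.271 in limma on the pair values and 0.0437 with the block. Nfkbia encodes IkB-alpha, the classical cytoplasmic inhibitor that is quickly remade after each round of activation. It had 0.39, 1.30 and 1.22 with LynDN in Cy3 and 0.22, 0.88 and 1.26 with LynDN in Cy5. The mean was 0.88 ± 0.50 (SD, n = 3; 95% interval 0.39 to 1.37), with adjusted p = 0.278 in limma on the pair values and 0.0553 with the block. Nfkbia, too, was positive on all 6 arrays, so that 4 of the 9 genes were, against 3.72% of all rows.

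The IkB genes were not alike. Nfkbie encodes IkB-epsilon, a slower-acting cytoplasmic inhibitor, and had the smallest mean of the 9 genes, 0.10 ± 0.03 (SD, n = 3). Its array values were -0.05, 0.23 and 0.13 with LynDN in Cy3 and 0.18, 0.02 and 0.08 with LynDN in Cy5, so the small SD over pairs hides differences between the arrays of a pair. Its 95% interval was -0.03 to 0.23 and adjusted p = 0.493 in limma. Nfkbia lay above Nfkbie on 6 of 6 arrays, by 0.25, 0.96 and 1.13 in pairs 1, 2 and 3. Nfkbiz lay above Nfkbia on 6 of 6 arrays as well, by 0.53, 0.87 and 0.71. These differences between genes are descriptions and were not tested.

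Tnfaip3 encodes A20, which removes activating ubiquitin chains upstream of the IkB kinase, and Tnip1 encodes ABIN1, which binds A20. Tnfaip3 had 0.09, 0.60 and 0.86 with LynDN in Cy3 and -0.06, 0.66 and 0.67 with LynDN in Cy5. In pair 1 it was thus near 0, while the 4 arrays of pairs 2 and 3 ran from 0.60 to 0.86. Its mean was 0.47 ± 0.40 (SD, n = 3; adjusted p = 0.359 in limma). Tnip1 had -0.13, 0.47 and 0.42 with LynDN in Cy3 and 0.12, 0.06 and 0.28 with LynDN in Cy5, a mean of 0.20 ± 0.18 (SD, n = 3; adjusted p = 0.420 in limma). Tnfaip3 was above Tnip1 on 5 of 6 arrays.

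Nfkb2 and Relb encode p100/p52 and RelB, the pair of subunits at the end of the non-canonical pathway. Nfkb2 had -0.16, 0.42 and 0.59 with LynDN in Cy3 and 0.18, 0.60 and 0.39 with LynDN in Cy5. Its mean was 0.34 ± 0.28 (SD, n = 3; adjusted p = 0.368 in limma). Relb had -0.01, 0.49 and 0.49 with LynDN in Cy3 and 0.07, 0.03 and 0.41 with LynDN in Cy5, with a mean of 0.25 ± 0.21 (SD, n = 3; adjusted p = 0.391 in limma). Each had its lowest pair mean in pair 1, at 0.01 for Nfkb2 and 0.03 for Relb. The 2 genes differed by 0.09 ± 0.14 (SD, n = 3).

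**Figure D2:**
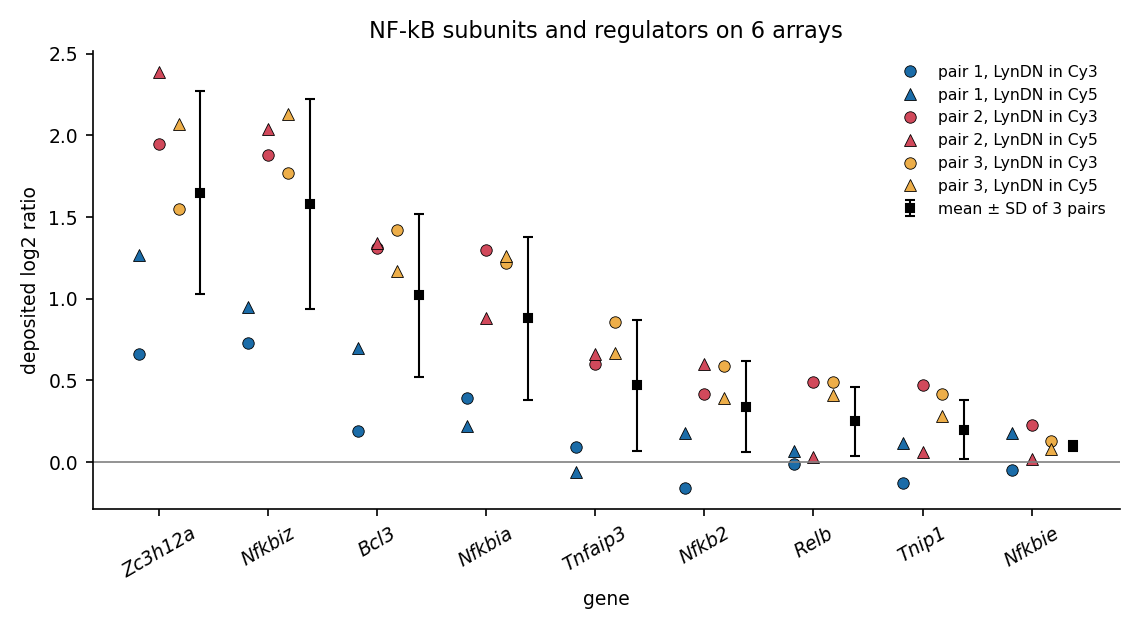
Deposited log2 ratio (y axis) of the 9 genes on 6 arrays, coloured by mouse pair, with circles for LynDN in Cy3, triangles for LynDN in Cy5 and black squares for the mean ± SD of the 3 pair values. Pair 1 lies lowest among the pair means for each gene, and Zc3h12a, Nfkbiz, Bcl3 and Nfkbia are above 0 on every array.

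In the order of mean ratios, 2 neighbouring steps were larger than the spread of that step between pairs and had the same sign on 6 of 6 arrays: Nfkbiz over Bcl3, by 0.56 ± 0.14, and Nfkbia over Tnfaip3, by 0.41 ± 0.10 (SD, n = 3). Bcl3 over Nfkbia came to 0.14 ± 0.09 but held on 4 of 6 arrays. From Tnfaip3 down through Nfkb2, Relb, Tnip1 and Nfkbie, every step between neighbours was below its own SD. The first 4 genes, Zc3h12a, Nfkbiz, Bcl3 and Nfkbia, stood within the top 0.752% of named genes, and Nfkbie was at rank 2752, within the top 14.8%. A mean of at least 2-fold was reached by 3 of the 9, against 0.52% of all rows.

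**Figure D3:**
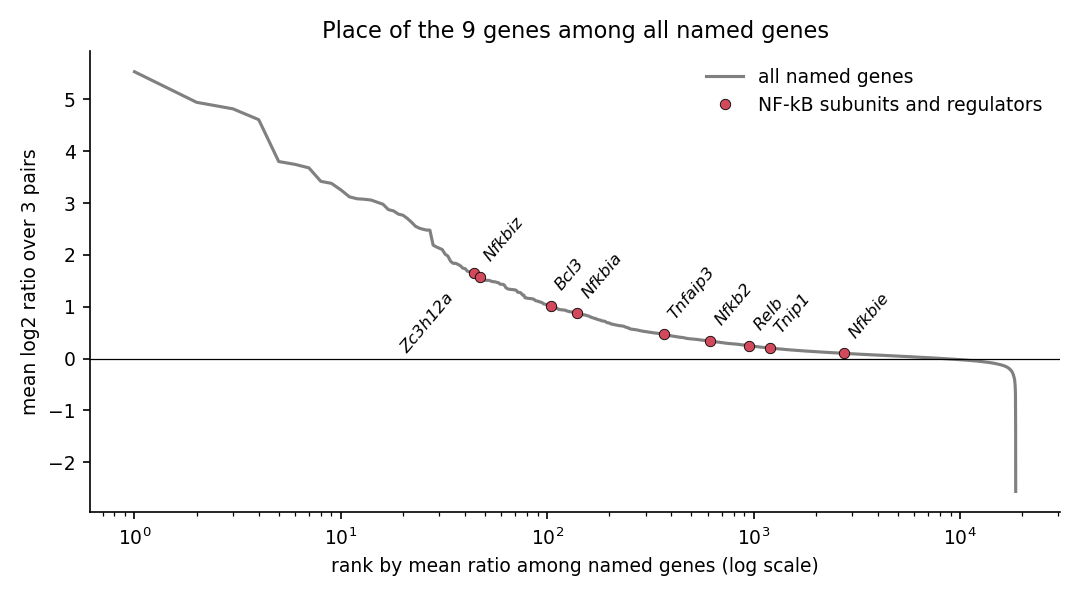
Mean log2 ratio over 3 pairs (y axis) of all 18617 named genes in order of rank (x axis, log scale), with the 9 NF-kB genes in red. Zc3h12a and Nfkbiz stand at ranks 44 and 47, and Nfkbie at rank 2752.

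Pair 1 set the spread. Across all rows its 2 arrays correlated at 0.0239, against 0.463 and 0.462 for the arrays of pairs 2 and 3. The median over the 9 genes was 0.06, 0.63 and 0.77 in pairs 1, 2 and 3, and pair 1 had the lowest value in 9 of 9 genes. Among all named genes with a mean of at least 0.1, pair 1 was lowest in 67.5% of 2752, and among those with a mean of at least 1 in 94.4% of 107. Pair 1 kept 48.4% of the mean log2 ratio of the other pairs for Zc3h12a, 43.0% for Nfkbiz, 34.0% for Bcl3 and 26.6% for Nfkbia, but 1.71% for Tnfaip3, 1.85% for Nfkb2, 8.4% for Relb and -0.893% for Tnip1. For Nfkbie, the gene with the smallest mean, it kept 54.6%, the highest share of the 9. Without pair 1 the means were 1.99 for Zc3h12a (3.98-fold), 1.96 for Nfkbiz (3.88-fold), 1.31 for Bcl3 (2.48-fold), 1.16 for Nfkbia (2.24-fold), 0.70 for Tnfaip3 and 0.50 for Nfkb2. The adjusted p of these 6 genes in limma then ran from 0.000503 for Nfkbiz to 0.0201 for Nfkb2, on 2 pairs. Relb and Tnip1, with 0.36 and 0.31, had adjusted p of 0.0777 and 0.0778.

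Pair 1 also differed in some sex-linked genes. The Y-linked gene Eif2s3y reached 3.38 and 3.62 in pair 1 but lay between -0.04 and 0.09 on the other 4, and Kdm5d, also Y-linked, had 1.46 and 1.02 and lay between -0.07 and 0.22 on the other 4. Xist, expressed from the inactive X chromosome of females, had -1.31 and -0.80 in pair 1 and lay between -0.21 and 0.01 elsewhere. In these 3 genes the pattern is that of mice of opposite sex. Uty, also Y-linked, had a mean of -0.09 over the 3 pairs. The 4 measured sex-linked genes, Uty among them, had a median of 0.65 in pair 1, where the pair mean of Kdm5d was 1.24. Uty thus lay below 0.65 there and did not share the high values of Eif2s3y and Kdm5d. If the sexes differ, genotype and sex cannot be told apart in pair 1. Of the cell type markers, those of macrophages and monocytes had medians of -0.08, 0.53 and 0.83 in pairs 1, 2 and 3 (20 of 25 genes measured, 18 with a positive mean, 0 passing in limma on the pair values and 14 without pair 1, against 3.22% of rows), led by Ms4a7 with 0.76 ± 0.79 and the Fc receptor gene Fcgr3 with 0.65 ± 0.62 (SD, n = 3). Neutrophil markers had 0.12, 0.52 and 0.44 (17 of 20 measured, 16 positive, 2 passing, S100a8 and S100a9, which keratinocytes also make, against 0.0175% of rows, and 12 without pair 1), basal keratinocyte markers 0.12, 0.51 and 0.34 (9 of 10 measured, 8 positive), and T cell markers -0.02, -0.02 and 0.06 (16 of 20 measured, 9 positive). Suprabasal keratinocyte markers were negative, with -0.32, -0.59 and -0.63 (9 of 10 measured, 3 positive), and hair follicle markers had 0.10, -0.75 and -0.63 (14 of 18 measured, 1 positive). The largest means in size were 1.34 ± 0.54 for Krt14 and 0.58 ± 0.35 for Itga6 among basal markers (SD, n = 3). They were -2.23 ± 0.86 for Flg and -1.77 ± 1.24 for Krt10 among suprabasal markers. Among hair follicle markers they were -1.36 ± 0.33 for Krt15 and -0.98 ± 0.44 for Krt33a (SD, n = 3). With the block 2 basal markers passed as positive, against 0.603% of rows, and 2 suprabasal and 3 hair follicle markers as negative, against 0.459%. Without pair 1, 4 basal markers and 1 suprabasal marker passed as positive, against 3.22% of rows, and 5 suprabasal and 9 hair follicle markers as negative, against 1.67%. The medians over pairs were -0.03 for B cell, 0.08 for dendritic and Langerhans cell, -0.04 for fibroblast, 0.02 for endothelial and -0.09 for adipocyte markers. The leukocyte antigen gene Ptprc had -0.22, -0.22 and 0.46 in pairs 1, 2 and 3. These marker values move with the NF-kB genes across pairs in part, where a low pair 1 is shared. Pair 1 was also lowest in 67.5% of the 2752 named genes with a mean of at least 0.1. The part of the markers in the NF-kB ratios was not tested. A lower pair 1 was not seen in every gene of the pathway's output: the gene of the CCR6 ligand Ccl20 had 2.14, 2.01 and 2.23.

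**Figure D4:**
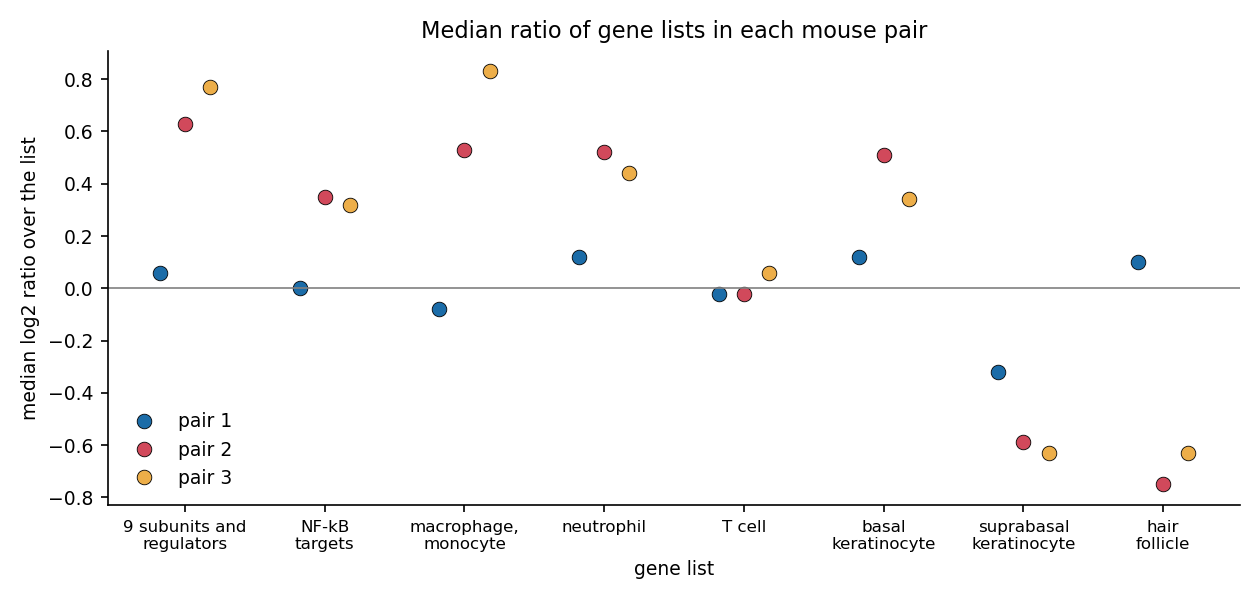
Median log2 ratio (y axis) of the 9 NF-kB genes, of NF-kB targets and of cell type marker lists (x axis), with 1 point per mouse pair. The 9 genes have 0.06, 0.63 and 0.77 in pairs 1, 2 and 3, and macrophage and monocyte markers -0.08, 0.53 and 0.83.

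Of the other subunit and IkB genes, 6 of 6 were measured, 0 passed in limma on the pair values or with the block, and the median was 0.06. Rel, the gene for the subunit c-Rel, stood above the rest with 0.42, 1.07 and 0.80 with LynDN in Cy3 and 0.06, 0.75 and 0.43 with LynDN in Cy5. Its mean was 0.59 ± 0.34 (SD, n = 3; adjusted p = 0.278 in limma and 0.0611 with the block), and it was positive on 6 of 6 arrays. Without pair 1 it passed (adjusted p = 0.0195 in limma), the 1 gene of this list that did. Rela, the gene for the main activating subunit p65, had 0.23 ± 0.16, Nfkbib, for IkB-beta, had 0.12 ± 0.04, and Nfkbid, for the nuclear protein IkB-NS, had 0.00 ± 0.07 (SD, n = 3). The adjusted p of these 3 genes in limma ran from 0.361 to 0.981.

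Of 31 measured kinases and activating adaptors (38 in the list), 0 passed on the pair values or with the block, 21 had a positive mean, and the median was 0.03, with a range from -0.21 for Traf1 to 0.49 for Birc3, an upper end above the mean of 0.47 for Tnfaip3. The smallest p belonged to Irak3, for an inhibitory member of the IRAK family, with 0.46 ± 0.21, Map3k8, for the kinase Tpl2, with 0.28 ± 0.14, Card14, for a keratinocyte scaffold whose activating mutations cause psoriasis in humans, with 0.40 ± 0.28, and Bcl10, for its signalling partner, with 0.31 ± 0.22 (SD, n = 3). Irak3, Map3k8 and Card14 were positive on 6 of 6 arrays and Bcl10 on 5. Their adjusted p in limma was between 0.273 and 0.339, and without pair 1 all of them passed but Map3k8 (adjusted p = 0.0665). Without pair 1 the list had 7 passes, all positive, against 3.22% of rows.

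Of 22 measured further negative regulators (26 in the list), 0 passed on the pair values and 1 with the block, against 0.603% of rows, and the median was 0.08. This gene was Nlrx1, a mitochondrial member of the NLR family, with 0.33 ± 0.04 (SD, n = 3; adjusted p = 0.0329 with the block in limma). Its arrays with LynDN in Cy3 gave 0.49, 0.57 and 0.47 and those with LynDN in Cy5 gave 0.09, 0.13 and 0.22, so its size rested on the dye orientation. Zfp36, whose product tristetraprolin destabilises cytokine mRNAs, had 0.43 ± 0.20, Zc3h12d, a relative of Zc3h12a, had 0.20 ± 0.05, and Socs1, for a cytokine receptor inhibitor, had 0.26 ± 0.20 (SD, n = 3). Without pair 1, 1 of the 22 passed, as positive, against 3.22% of rows. The largest mean in this list, that of Zfp36, lay below the means of Tnfaip3, Nfkbia, Bcl3, Nfkbiz and Zc3h12a.

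NF-kB target genes had a median of 0.20, with 34 of 40 measured genes positive in the mean (42 in the list). On the pair values 1 passed, Ccl20, with 2.13 ± 0.11 (SD, n = 3; adjusted p = 0.00311 in limma), against 0.0175% of rows. With the block 4 passed, all positive, against 0.603%: Ccl20, Tnfaip2 with 0.89 ± 0.31, Ier3, an early response gene of stress and survival, with 1.11 ± 0.61, and the neutrophil attractant Cxcl1 with 0.72 ± 0.38 (SD, n = 3). The medians were 0.00, 0.35 and 0.32 in pairs 1, 2 and 3, and without pair 1 the passes came to 19, all positive, against 3.22% of rows. Tnfaip2 had 0.77, 1.11 and 1.18 with LynDN in Cy3 and 0.33, 1.22 and 0.70 with LynDN in Cy5. Ier3 had 0.06, 0.88 and 1.32 with LynDN in Cy3 and 0.90, 1.42 and 2.07 with LynDN in Cy5. The size of the Ier3 ratio thus rested in part on the dye orientation. Vcam1, for an endothelial adhesion molecule, was the lowest target at -0.26. Of 28 target genes with a promoter window, 11 (39.3%) held the consensus, as did 2 of 24 kinases and adaptors (8.33%) and 5 of 15 further negative regulators (33.3%).

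Genes known in keratinocytes to depend on IkB-zeta had a median of 1.88, and 15 of 15 measured genes had a positive mean, 13 of them on all 6 arrays. The list was written knowing earlier results of these data, and it shares Ccl20, Lcn2, Csf3, Cxcl1 and Cxcl5 with the target list. On the pair values 3 passed, S100a9, S100a8 and Ccl20, against 0.0175% of rows. With the block 9 passed, against 0.603%, and without pair 1 13 passed, against 3.22%, all positive. The IL-36 gene Il1f9 had 0.85, 2.43 and 2.22 in pairs 1, 2 and 3, beside 0.84, 1.96 and 1.95 for Nfkbiz itself. Il1f6, of the same family, had a mean of 2.77 ± 0.68 (SD, n = 3). The defensin genes, close paralogs whose probes can cross-hybridise, also had low values in pair 1: Defb4 had 1.43, 3.95 and 3.87, and Defb14 had 1.22, 3.93 and 4.21. In contrast, S100a9 with 5.65, 5.35 and 5.61 was not lower in pair 1.

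Of 16 measured mRNAs known as targets of Regnase-1 (18 in the list), among them Nfkbiz, 14 had a positive mean and the median was 0.19. This list shares Il6, Il12b, Cxcl1, Cxcl2, Ptgs2, Lcn2 and Il1b with the target list. It also shares Rel and Nfkbid with the other subunit and IkB genes, so its counts are in part those of genes given above. On the pair values 0 passed in limma, and with the block 2, both positive, against 0.603% of rows: Cxcl1 and Nfkbiz, itself 1 of the 9 genes. Without pair 1, 6 passed, all positive, against 3.22% of rows. Il17ra, for a subunit of the IL-17 receptor, had 0.27 ± 0.02 (SD, n = 3; adjusted p = 0.268 in limma), though its arrays ranged from 0.11 to 0.46. The transferrin receptor gene Tfrc was lowest at -0.16 and Lcn2, for a siderophore-binding protein, highest at 1.88.

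**Figure D5:**
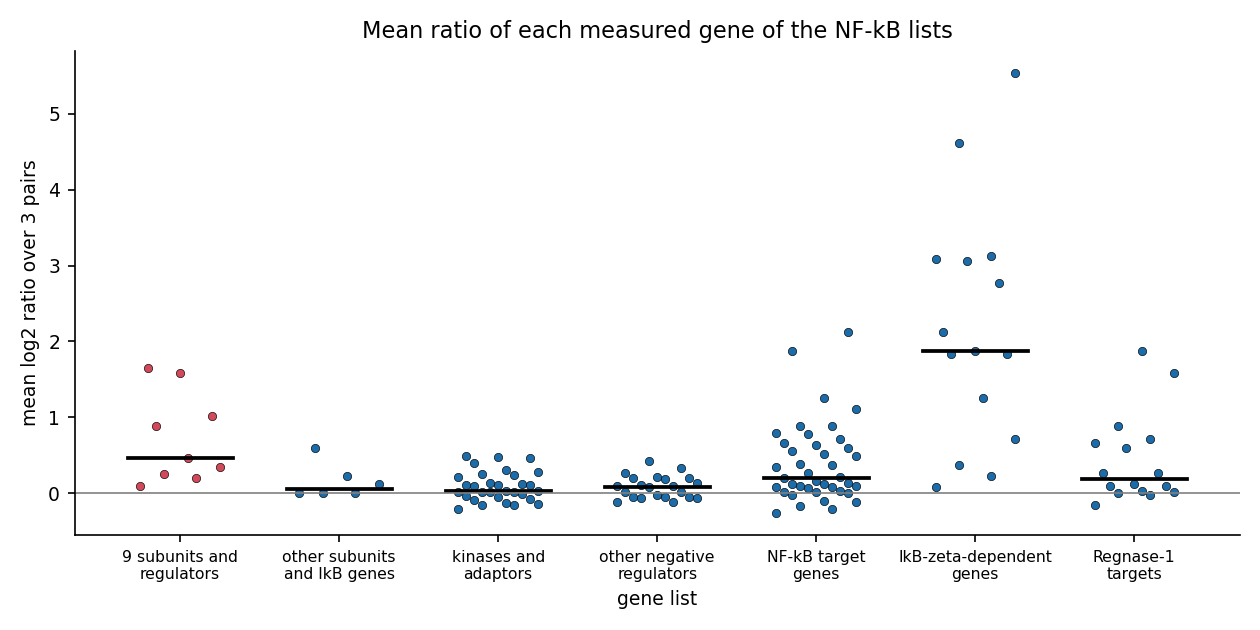
Mean log2 ratio over 3 pairs (y axis) of each measured gene of the NF-kB lists (x axis), with a black line at each list's median. The median is 0.47 for the 9 genes, 0.03 for kinases and adaptors, 0.20 for target genes and 1.88 for IkB-zeta-dependent genes.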

How the data were processed

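Total RNA of mouse skin was extracted with Qiagen reagents and labelled with Ambion reagents, per the labels' protocols, and every array carried channel 1 in Cy3 and channel 2 in Cy5. The authors deposited 1 log2 ratio per probe and array (25344 probes, 6 arrays), where base 2 was assumed from the range of values; the numerator, background correction, normalization and centring are not stated there, and spot signals were not used. The columns have medians from -0.02 to 0.00. Bcl3 and Relb are deposited with at most 3 significant digits.

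Probes with 1 symbol in the platform annotation (21082) were averaged per symbol, which gave 22879 rows, 18617 of them named. The arrays of each dye swap were averaged, since their RNAs are the same, and limma 3.58.1 (R 4.3.3) compared the 3 pair values with 0 (lmFit, eBayes, Benjamini-Hochberg over all rows, threshold 0.05). The block fit used 6 arrays with a dye term and duplicateCorrelation (consensus 0.151). The labels give the pairing, and deviations of arrays of a pair correlated at 0.391, 0.182 and 0.126. Across rows, arrays of a dye swap correlated at 0.0239, 0.463 and 0.462 in pairs 1, 2 and 3. The arrays of pair 1 correlated at 0.352 to 0.369 with arrays of the same dye orientation in the other pairs. An exact sign-flip test over 3 pairs cannot go below p = 0.25. P-values measure the spread between mice and arrays together. Tests were checked on simulated data with the same spread in every row. There no pair stood apart, unlike in these data, so the check does not show how well genes low in pair 1 are found. Promoter windows are RefSeq's for GRCm38.p6, and figures were drawn with matplotlib 3.10.9.

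The genes and lists were chosen with earlier results of these data known. Genes named in the text are the measured members and the 4 genes of each pathway list with the smallest p plus any that passed. For members of at least 2-fold, the 3 named genes most like them are also given. Marker genes with the largest mean in size are named for macrophages and monocytes, neutrophils, basal and suprabasal keratinocytes and hair follicle. For the other cell types none is named. Named beyond these rules, after their values were seen, are the genes at the ends of list ranges and those passing only with the block. Il1f9, Defb4, Defb14, Eif2s3y, Kdm5d, Xist, Uty and Ptprc were named in the same way. Alternatives are named in the closing section.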

Additional observations from a re-analysis of the deposited data

How the results depend on the processing

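The direction of all 9 genes was the same under the 11 alternatives run, in 99 of 99 values, and the median over the genes stayed between 0.32 and 0.70. Many of these values could not have changed. The block fit, the median over probes, every probe as a row and no variance moderation give these genes the same means by design. The other alternatives reuse the same arrays or part of them. With the mouse pair as a replicate block 3 of the 9 passed and 243 rows in all. Quantile normalization between arrays gave 2 of the 9 (Zc3h12a and Nfkbiz) and 72 rows, 53 positive and 19 negative, where the values as deposited gave 4 and 0. Leaving out a pair gave 0 to 6 of the 9 and 2 to 1117 rows, the highest without pair 1. Arrays with LynDN in Cy3 alone gave 54 rows and those with LynDN in Cy5 alone 24, and without variance moderation 0 rows passed (with moderation, unadjusted p was under 0.05 for 1354 rows on the positive side and 1466 on the negative). None of the 9 passed under these last 3 settings. Median centring, the median over probes and every probe as a row left 0 of the 9 passing. With spot signals not used here, signal over background could not be examined.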

Other observations

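Genes whose values came closest to those of the strongest NF-kB regulators were found by the root mean square difference in log2 ratio over the 6 arrays, among all named genes outside the set. Closest to Nfkbiz were Prss27, for a serine protease (difference 0.19), the kallikrein gene Klk6 (0.22) and Map6 (0.23). Closest to Bcl3 were the protocadherin gene Pcdhb5 (0.18), Il13ra1, for a receptor subunit of IL-13 (0.20), and the Notch ligand gene Dll4 (0.21). Closest to Zc3h12a were 1700031A10Rik (0.27), Prss27 (0.30) and the connexin gene Gjb6 (0.31). Prss27 had 0.64, 1.83 and 1.84 in pairs 1, 2 and 3.

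Over the whole array, genes outside the set whose promoter window held the NF-kB consensus had a median log2 ratio of 0.00 (851 genes), against -0.01 for those without it (13880 genes). A mean of at least 2-fold on the positive side was reached by 8 genes with the consensus (0.94%) and by 76 without (0.548%). With the mouse pair as a block in limma, 11 genes (1.29%) and 77 genes (0.555%) passed as positive. Genes of the lists above were not left out, among them 11 NF-kB targets and 5 further negative regulators with the consensus. These shares were not tested against each other.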
